A study of Mus musculus with 12 samples.

Results

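Efferocytosis, the clearance of dying cells by phagocytes, was followed here through 7 genes out of the 35275 listed in the count data of mouse bone marrow-derived macrophages (BMDMs): the bridging ligands Gas6, Pros1 and Mfge8 and the receptors Mertk, Axl, Timd4 and Stab1. These genes were chosen from their known roles and from their measured levels in these same libraries, so the differences between treatments given for them are a description and carry no test. Bone marrow cells of wildtype mice were cultured with M-CSF, IL-4 and IL-10, cytokines that drive an M2 phenotype, and all 3 groups shared this medium. For 6 days the cells received DMSO as the solvent control, olaparib, an inhibitor of poly(ADP-ribose) polymerases (PARP), or MNA (methyl-nicotinamide), a derivative of NAD. The labels give neither the doses nor the age or sex of the mice. Each group had 4 libraries with the numbers 1 to 4, and the study's legend names 4 donor mice. Total counts on genes per library were 21146291 to 31446849 with DMSO, 24947905 to 28766984 with olaparib and 24076240 to 27501216 with MNA, and levels are given as CPM, the count of a gene scaled to a common library size after TMM, a correction for composition.

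A cell that dies by apoptosis exposes phosphatidylserine on its surface. Gas6 and protein S, the product of Pros1, bind this lipid. They link it to some or all of the receptor tyrosine kinases Tyro3, Axl and Mertk (the TAM receptors). MFG-E8, the product of Mfge8, links the lipid to integrins of the alpha v family. Tim-4, the product of Timd4, and stabilin-1, the product of Stab1, bind phosphatidylserine directly. In macrophages, binding is followed by engulfment through Rac, digestion in the phagosome, and dampening of inflammatory signalling by the TAM receptors.

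MNA library 2 is shown apart in what follows. Over the tested genes, its root mean square log2 difference was 0.334 to 0.421 from the DMSO libraries and 0.902 to 0.944 from the other MNA libraries, whereas MNA libraries 1, 3 and 4 differed from each other by 0.398 to 0.482. The library labelled MNA 2 therefore lay nearer to the DMSO libraries than to those of its own label. Levels for MNA are given for libraries 1, 3 and 4, with library 2 beside them, and the fitted values of MNA against DMSO are given with and without it.

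Per kilobase of exon, the order of levels with DMSO was Mfge8 (61.4 ± 6.20 CPM per kb, SD, n = 4), Pros1 (31.1 ± 3.91), Gas6 (5.04 ± 0.329), Mertk (3.88 ± 0.528), Stab1 (0.751 ± 0.159), Axl (0.572 ± 0.157) and Timd4. The neighbours Stab1 and Axl overlapped between libraries, and the other neighbours among the first 6 were further apart than their SDs. With olaparib the order was Mfge8 (195 ± 30.0), Pros1 (29.0 ± 2.27), Gas6 (13.7 ± 1.77), Mertk (8.63 ± 1.10), Axl (4.20 ± 1.94) and Stab1 (3.37 ± 0.80), and Axl and Stab1 again overlapped. In MNA libraries 1, 3 and 4 it was Mfge8 (77.1 ± 1.07, n = 3), Pros1 (16.3 ± 2.16), Gas6 (6.05 ± 0.832), Mertk (3.92 ± 0.704), Axl (2.53 ± 1.29) and Stab1 (0.337 ± 0.201), with Axl and Mertk overlapping. The ligand Mfge8 was thus the most abundant member per length in each group, and the receptors lay below the ligands.

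The promoters of 4 members are shown because 3 of them (Gas6, Mertk and Mfge8) had parallel levels over the libraries and the fourth (Stab1) differed from DMSO in opposite directions with olaparib and MNA. Each is the 250 bases before the RefSeq start site (GRCm38.p6), 5′ to 3′ on the gene's strand, with matches to the searched motifs in capitals on either strand. RefSeq windows were matched for 7 of the 7 members.
Gas6 promoter (chr8:13494536-13494785, - strand): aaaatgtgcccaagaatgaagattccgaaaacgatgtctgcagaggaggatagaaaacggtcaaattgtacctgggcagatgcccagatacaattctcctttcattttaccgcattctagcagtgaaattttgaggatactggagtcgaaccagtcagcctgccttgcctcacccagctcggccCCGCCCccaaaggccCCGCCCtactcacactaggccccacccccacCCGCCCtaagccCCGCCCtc
Mertk promoter (chr2:128698665-128698914, + strand): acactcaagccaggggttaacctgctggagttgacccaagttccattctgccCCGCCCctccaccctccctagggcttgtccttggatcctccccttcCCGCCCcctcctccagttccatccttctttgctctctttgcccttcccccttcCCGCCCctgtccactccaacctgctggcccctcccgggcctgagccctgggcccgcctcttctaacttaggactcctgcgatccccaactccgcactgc
Mfge8 promoter (chr7:79149061-79149310, - strand): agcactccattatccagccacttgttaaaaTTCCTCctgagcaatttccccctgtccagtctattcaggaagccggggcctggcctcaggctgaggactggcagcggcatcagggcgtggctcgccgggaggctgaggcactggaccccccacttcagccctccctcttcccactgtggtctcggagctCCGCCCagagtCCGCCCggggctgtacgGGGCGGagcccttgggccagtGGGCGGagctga
Stab1 promoter (chr14:31168642-31168891, - strand): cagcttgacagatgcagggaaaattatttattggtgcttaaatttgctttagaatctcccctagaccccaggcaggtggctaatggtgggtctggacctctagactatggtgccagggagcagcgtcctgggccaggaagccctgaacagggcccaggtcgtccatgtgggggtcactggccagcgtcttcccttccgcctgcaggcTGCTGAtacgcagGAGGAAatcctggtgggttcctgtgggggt
The capitals in Gas6 and Mertk mark the GC box GGGCGG (4 and 3 matches), bound by Sp-type factors. Mfge8 held 4 GC boxes and 1 match to GAGGAA, the motif searched for PU.1, an ETS factor. In Stab1 the capitals mark 1 GAGGAA at position -30 and 1 MAF site TGCTGA at -43, counted from the start site, and no GC box. Of 32851 promoter windows of this length, 32.7% held the GC box, 23.3% GAGGAA and 16.1% TGCTGA. Among the other members, Axl held 1 GC box and 1 GAGGAA, Timd4 2 MAF sites, and Pros1 5 GC boxes with 1 match to the STAT site TTCNNNGAA (in 7.02% of windows) and 1 to the STAT6 site with a wider spacing (in 5.85%). No member's window matched the AP-1 site TGANTCA (in 6.75%). The matches overlap in Pros1, where 2 GC boxes share bases. GC content of the windows was 50% (Timd4) to 65.2% (Mfge8).

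Among the ligands, Gas6 and Mfge8 were higher with olaparib and near DMSO with MNA, while Pros1 was lower with MNA only. Gas6 (ENSMUSG00000031451, GRCm38 chromosome 8, 13465374 to 13494490, minus strand) was at 12.6, 12, 12.8 and 14.0 CPM in DMSO libraries 1 to 4. It was at 28.6, 36.0, 35.9 and 39.3 CPM in the olaparib libraries and at 13, 17.1 and 16.1 CPM in MNA libraries 1, 3 and 4, with 12.4 in MNA 2. Every olaparib library lay above every DMSO and MNA library, and the MNA libraries overlapped with DMSO. The fitted log2 fold change was 1.44 ± 0.123 (SE) with olaparib, or 2.72-fold, and 0.19 ± 0.122 with MNA (0.26 ± 0.117 without MNA 2). In bulk RNA, a change in the number of cells of a type and a change in RNA per cell cannot be told apart. Of its exon bases, 34 (1.33%) overlap with Tmem255b on the other strand, which had 0 counts in every library.

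Mfge8 (ENSMUSG00000030605, chromosome 7, 79133768 to 79149060, minus strand) was at 257, 285, 327 and 283 CPM with DMSO and at 726, 910, 1060 and 961 CPM with olaparib. In MNA libraries 1, 3 and 4 it was at 364, 365 and 356 CPM, and in MNA 2 at 251. The 3 MNA libraries lay just above the DMSO range, MNA 2 lay below it, and all olaparib libraries were higher than both. The log2 fold change was 1.67 ± 0.142 with olaparib and 0.21 ± 0.139 with MNA (0.33 ± 0.107 without MNA 2).

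Pros1 (ENSMUSG00000022912, chromosome 16, 62854307 to 62929346, plus strand) encodes the second TAM ligand, which also serves as an anticoagulant in plasma. Its levels were 141, 111, 141 and 116 CPM with DMSO and 114, 113, 132 and 115 CPM with olaparib, so that these groups overlapped. In MNA libraries 1, 3 and 4 it was at 73.2, 69.9 and 56.5 CPM, and MNA 2 at 103 lay closest to DMSO but still below its lowest library. The log2 fold change was -0.10 ± 0.152 with olaparib and -0.75 ± 0.154 with MNA (-0.94 ± 0.108 without MNA 2).

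**Figure D1:**
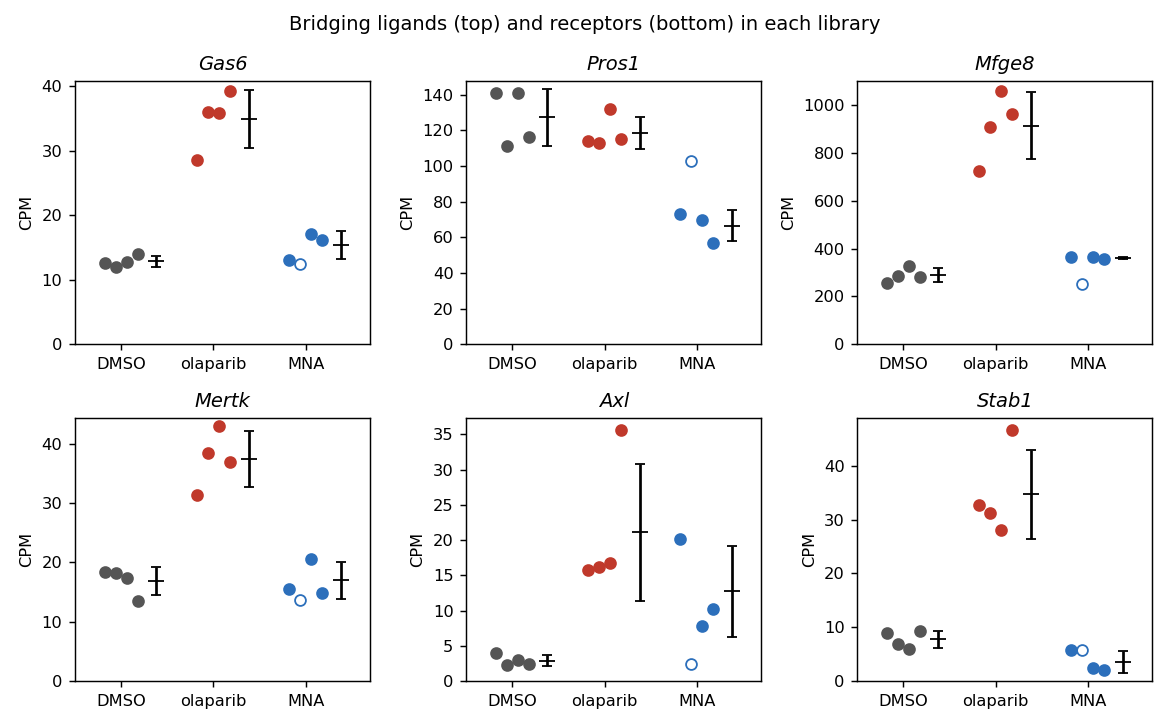
CPM of the 3 bridging ligands and the 3 receptors above the filter in each library (vertical axes from 0, 1 point per library, groups on the horizontal axis), with MNA library 2 as an open circle and the mean ± SD of each group beside it, without MNA 2. Olaparib libraries lie above DMSO for each gene but Pros1, for which MNA libraries 1, 3 and 4 (56.5 to 73.2 CPM) lie lowest.

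Among the receptors, Mertk, Axl and Stab1 were all higher with olaparib. With MNA, Mertk overlapped with DMSO, Axl was higher except in MNA 2, and Stab1 was lower. Mertk (ENSMUSG00000014361, chromosome 2, 128698956 to 128802894, plus strand) was at 18.3, 18.2, 17.4 and 13.4 CPM with DMSO and at 31.4, 38.5, 42.9 and 36.9 CPM with olaparib. It was at 15.5, 20.5 and 14.9 CPM in MNA libraries 1, 3 and 4 and at 13.7 in MNA 2. The olaparib libraries were separate from the rest, and MNA overlapped with DMSO in both directions. The log2 fold change was 1.16 ± 0.142 with olaparib and -0.05 ± 0.143 with MNA (0.02 ± 0.139 without MNA 2).

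Axl (ENSMUSG00000002602, chromosome 7, 25757273 to 25788705, minus strand), the TAM receptor that prefers Gas6 and is known to be induced by inflammatory stimuli, was at 3.98, 2.27, 2.92 and 2.35 CPM with DMSO, from 66 to 87 counts. With olaparib it was at 15.7, 16.2, 16.8 and 35.7 CPM, and in MNA libraries 1, 3 and 4 at 20.1, 7.87 and 10.2 CPM. MNA 2 was at 2.40 CPM, within the DMSO range. Like Mfge8, Axl was higher than DMSO in all olaparib libraries and in MNA libraries 1, 3 and 4. The MNA difference of Mfge8 was smaller, at a log2 fold change of 0.33 ± 0.107 without MNA 2. Axl had a spread between libraries (coefficient of variation 46.2% with olaparib and 50.9% in the 3 MNA libraries) above that of Gas6 (12.9% and 13.8%). Its log2 fold change was 2.89 ± 0.522 with olaparib and 1.82 ± 0.514 with MNA (2.16 ± 0.368 without MNA 2). Olaparib and MNA overlapped, with MNA library 1 above 3 of the 4 olaparib libraries.

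Stab1 (ENSMUSG00000042286, chromosome 14, 31139013 to 31168641, minus strand), a scavenger receptor of alternatively activated macrophages and of sinusoidal endothelium, was at 8.95, 6.85, 5.86 and 9.24 CPM with DMSO. Its levels were 32.8, 31.3, 28.0 and 46.7 CPM with olaparib and 5.84, 2.47 and 2.09 CPM in MNA libraries 1, 3 and 4, with 5.66 in MNA 2. The groups did not overlap in either direction, although MNA libraries 1 and 2 lay just below the lowest DMSO library. The log2 fold change was 2.17 ± 0.304 with olaparib and -0.94 ± 0.313 with MNA (-1.16 ± 0.306 without MNA 2), and between olaparib and MNA it was 3.11 ± 0.321. Of the Stab1 exon bases, 1.09% overlap with Nt5dc2 on the other strand, where reads cannot be assigned without the strand setting, which the sources used here do not state.

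Timd4 (ENSMUSG00000055546, chromosome 11, 46810800 to 46844332, plus strand), a receptor of resident tissue macrophages, was close to absent. It had 3, 1, 1 and 2 counts with DMSO, 4, 4, 3 and 5 with olaparib, and 9, 2 and 1 in MNA libraries 1, 3 and 4 with 2 in MNA 2. The DMSO libraries were at or under 3 counts, the floor used here, and Timd4 did not pass the filter on low counts. No fold change is given for it.

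Side by side, the fold changes from DMSO differed among the 6 members above the filter. With olaparib Axl, Stab1, Mfge8, Gas6 and Mertk, in falling order of log2 fold change, were higher than DMSO in each of their 4 libraries. The share of all tested genes that separated between groups in this way is not given here, so nothing is read from such separation. With MNA, Axl was higher, Pros1 and Stab1 were lower, and Gas6, Mertk and Mfge8 stayed within 0.33 of DMSO on the log2 scale, with or without MNA 2. Both sets of values share the DMSO libraries. Between olaparib and MNA, the members other than Axl were higher with olaparib in each library, by a log2 fold change of 0.65 ± 0.153 for Pros1, 1.21 ± 0.143 for Mertk, 1.25 ± 0.122 for Gas6, 1.45 ± 0.141 for Mfge8 and 3.11 ± 0.321 for Stab1, and Axl was at 1.06 ± 0.479 with overlap. By the same library number, the log2 difference of olaparib from DMSO was positive in 4 of 4 pairs for Gas6 (1.18 to 1.58), Mertk (0.78 to 1.45), Mfge8 (1.50 to 1.76), Axl (1.96 to 3.89) and Stab1 (1.86 to 2.33), and in 1 of 4 for Pros1.

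**Figure D2:**
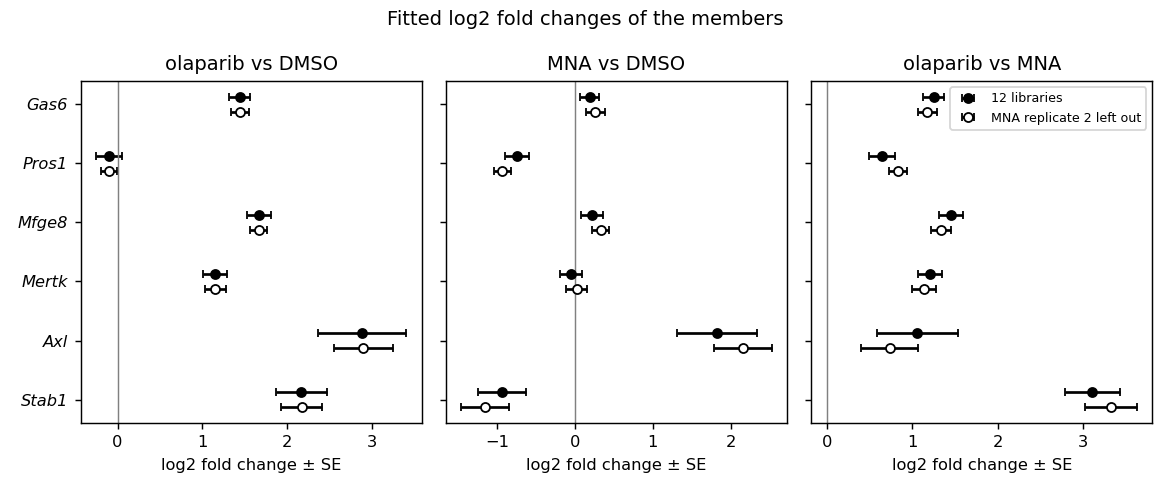
Fitted log2 fold change ± SE (horizontal axes, the scale differs between panels) of the 6 members in the 3 contrasts, with all 12 libraries (filled) and with MNA library 2 left out (open). Axl and Stab1 have the widest errors, and the grey line marks no difference.

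Of the 6 members, edgeR's quasi-likelihood test at a Benjamini-Hochberg adjusted p under 0.05 called 5 higher and 0 lower with olaparib against DMSO, where 14.3% of all tested genes were called higher and 12.8% lower. With MNA against DMSO it called 1 higher (Axl) and 2 lower (Pros1 and Stab1), beside 16.3% and 12.3% of all tested genes. With olaparib against MNA it called 5 higher and 0 lower, beside 10.9% in either direction. Since the members were chosen on these contrasts, nothing is read from these counts. Without MNA 2, the shares of all tested genes called higher and lower were 22.5% and 21.2% with olaparib against DMSO, 27.2% and 26.9% with MNA against DMSO, and 21.5% and 20.7% with olaparib against MNA, and Mfge8 joined the members called higher with MNA. The MNA calls of Axl and Stab1 were lost when any of several single libraries was left out, as listed in the closing section.

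Within a library the balance of the ligands and of the receptors also differed between groups. The ratio of Gas6 to Pros1 per kilobase was 0.164 ± 0.0242 with DMSO (0.143 to 0.194), 0.475 ± 0.0665 with olaparib (0.404 to 0.548) and 0.379 ± 0.0870 in MNA libraries 1, 3 and 4 (0.286 to 0.458), with 0.193 in MNA 2. Both treatments lay above DMSO except for MNA 2, with olaparib through higher Gas6 and with MNA mainly through lower Pros1. The ratio of Axl to Mertk was 0.148 ± 0.0328 with DMSO (0.108 to 0.188), 0.492 ± 0.233 with olaparib (0.338 to 0.835) and 0.678 ± 0.398 in MNA libraries 1, 3 and 4 (0.331 to 1.11), with 0.151 in MNA 2. In MNA library 1 alone Axl exceeded Mertk per length. The ratio of Mfge8 to Gas6 stayed close, at 12.2 ± 1.40 with DMSO, 14.2 ± 1.25 with olaparib and 12.9 ± 1.96 in the 3 MNA libraries, with 11.0 in MNA 2, and the groups overlapped.

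**Figure D3:**
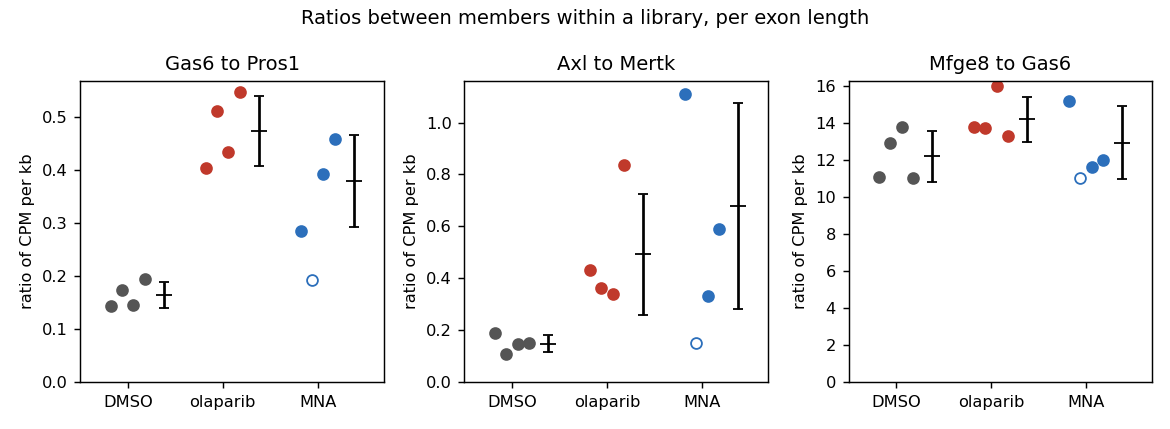
Ratios of CPM per kilobase between members within each library (vertical axes from 0, MNA library 2 as an open circle, mean ± SD beside the points without it). Gas6 to Pros1 and Axl to Mertk are higher in all olaparib libraries and in MNA libraries 1, 3 and 4 than with DMSO, and Mfge8 to Gas6 overlaps between the groups.

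Across the 12 libraries, which share their grouping by treatment, Pearson's r of log2 CPM between members was highest for Gas6 and Mfge8 (0.98), Mertk and Mfge8 (0.95) and Gas6 and Mertk (0.94). Stab1 correlated with these at 0.80 to 0.82, and Axl with Mfge8 at 0.82 and with Mertk at 0.70. Pros1 had an r of 0.63 with Stab1 and of -0.23 with Axl. Among 9345 genes with a mean of at least 5 CPM, those most like Gas6 over the 12 libraries were Cbr3 (r = 0.998), a carbonyl reductase, Pald1 (0.991) and Hvcn1 (0.988), a voltage-gated proton channel of phagocytes. Hvcn1 was also among the nearest to Mertk (0.972, with Sdha at 0.967 and Anxa3 at 0.966) and to Mfge8 (0.988, with Met at 0.991 and Tlr13 at 0.987). It was at 183 CPM with DMSO, 488 with olaparib and 212 in the 3 MNA libraries, with 161 in MNA 2. The genes most like Axl were Ly6e (0.977), C3 (0.976) and Hsdl2 (0.976). Nearest to Pros1 were Gda (0.987), Rnase2a (0.977) and Cd48 (0.972), and to Stab1 Abcd2 (0.987) and Ccdc80 (0.981). These values describe 12 libraries in 3 groups and carry no test.

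The other genes of the pathway were followed in 8 lists of 107 genes in all, of which 93 were tested. In total 19 rose and 12 fell with olaparib (62 did not pass), and 22 rose and 19 fell with MNA (52 did not pass). These counts are to be read against the shares over all tested genes given above. The median log2 fold change over the lists was 0.04 with olaparib and 0.06 with MNA, beside 0.00 over all tested genes in both contrasts. Without MNA 2 the counts were 31 and 19 with olaparib and 37 and 28 with MNA. Of the calls named below, 16 with olaparib and 21 with MNA, each held without MNA 2. With MNA 0 of the 21 held in the fit of MNA and DMSO alone and 7, 7 and 8 without MNA 1, 3 or 4. Below, levels with MNA are the mean ± SD of libraries 1, 3 and 4 (n = 3), and each log2 fold change and adjusted p is first that of all 12 libraries and then that without MNA 2. Against MNA, 18 of the 93 were higher and 14 lower with olaparib (23 and 27 without MNA 2).

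**Figure D4:**
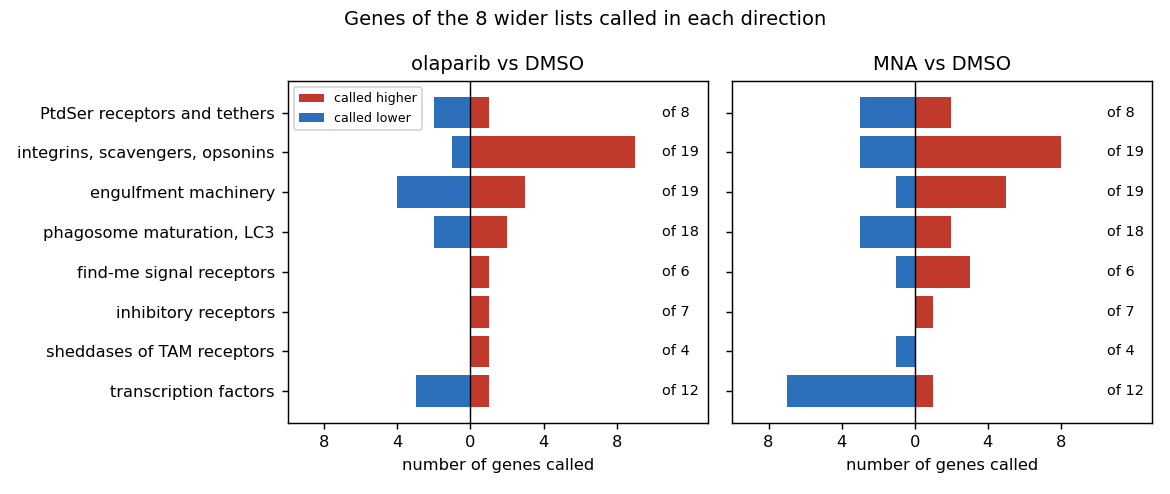
Number of genes called higher (right of 0) and lower (left of 0) in each of the 8 lists, with olaparib and with MNA against DMSO in the fit of 12 libraries. The list of integrins, scavenger receptors and opsonins has 9 and 8 higher genes of 19, and the list of transcription factors has 7 lower genes of 12 with MNA. Of all tested genes, 14.3% were called higher with olaparib, and 16.3% higher and 12.3% lower with MNA. The lists were written with earlier results known.

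Of 19 tested integrins, scavenger receptors and opsonins, 9 rose and 1 fell with olaparib, where 14.3% of all tested genes rose and 12.8% fell (median log2 fold change 0.39, beside 0.00 over all genes). With MNA 8 rose and 3 fell, where 16.3% of all tested genes rose and 12.3% fell (0.24, beside 0.00). These genes were listed with earlier results known, so no direction of the list is read from its counts. Itgam, the alpha chain of complement receptor 3, rose from 439 ± 63.3 to 1470 ± 147 CPM with olaparib (log2 fold change 1.74 ± 0.219, adjusted p = 0.000353). With MNA it was at 752 ± 126 CPM and at 361 in MNA 2 (0.57 ± 0.213, adjusted p = 0.0596, then 0.77 ± 0.123, 0.000122). C3, the central complement component and an opsonin, rose from 21.2 ± 6.25 to 134 ± 38.2 CPM with olaparib (2.65 ± 0.468, adjusted p = 0.00255). With MNA it rose to 78.8 ± 28.7 CPM and was at 15 in MNA 2 (1.57 ± 0.454, adjusted p = 0.0282, then 1.89 ± 0.270, 4.82e-05). C1qb, a chain of the opsonin C1q, was at 88.3 ± 10.1 CPM with DMSO and at 220 ± 72.4 with olaparib, higher in all 4 libraries (1.31 ± 0.485, adjusted p = 0.0613, and 0.00012 without MNA 2). It rose with MNA to 591 ± 94.1 CPM and was at 73.6 in MNA 2 (2.39 ± 0.501, adjusted p = 0.0142, then 2.74 ± 0.210, 1.49e-07). Scarb1, a receptor for high-density lipoprotein, was at 51.6 ± 3.60 CPM with DMSO and 61.0 ± 3.14 with olaparib (adjusted p = 0.316, and 0.00911 without MNA 2). With MNA it rose to 113 ± 9.67 CPM and was at 58.2 in MNA 2 (0.95 ± 0.175, adjusted p = 0.0142, then 1.13 ± 0.070, 2.16e-08).

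The integrin partners of MFG-E8 did not share one direction. Itgav was at 80.2 ± 5.22 CPM with DMSO, 79.3 ± 3.26 with olaparib (adjusted p = 0.887) and 90.4 ± 10.4 with MNA, with 81.7 in MNA 2 (adjusted p = 0.187, then 0.07). Itgb3 fell from 955 ± 126 to 569 ± 20.2 CPM with olaparib (-0.75 ± 0.163, adjusted p = 0.00678). With MNA it fell to 569 ± 36.9 CPM, while MNA 2 was at 946 (-0.53 ± 0.162, adjusted p = 0.0338, then -0.75 ± 0.093, 1.34e-05). Itgb5 rose with olaparib from 170 ± 15.3 to 209 ± 31.1 CPM (adjusted p = 0.0495, a call lost without 10 of the 12 single libraries), and with MNA it was at 191 ± 12.8 CPM, with 179 in MNA 2 (adjusted p = 0.282, then 0.195).

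Among 8 tested receptors and tethers for phosphatidylserine other than the members, 1 rose and 2 fell with olaparib (all tested genes: 14.3% and 12.8%). In the contrast of MNA and DMSO, 2 rose and 3 fell (all tested genes: 16.3% and 12.3%). The medians were 0.22 with olaparib and -0.14 with MNA. Cd300lf, an inhibitory receptor that binds phosphatidylserine, rose from 6.74 ± 0.683 CPM with DMSO to 15.4 ± 2.44 with olaparib (1.20 ± 0.309, adjusted p = 0.0153). It fell with MNA to 2.64 ± 1.27 CPM, with 5.80 in MNA 2 (-0.97 ± 0.320, adjusted p = 0.0416, a call lost without any single library other than MNA 2, then -1.36 ± 0.255, 0.000477). Stab2, the paralog of Stab1, was at 6.13 ± 1.96 CPM with DMSO and 5.47 ± 0.843 with olaparib (adjusted p = 0.819). It fell with MNA to 0.598 ± 0.242 CPM, with 3.19 in MNA 2 (-2.27 ± 0.518, adjusted p = 0.0162, then -3.34 ± 0.332, 1.7e-06). Cd300lb, an activating receptor, was at 503 ± 19.6 CPM with DMSO and 491 ± 13.6 with olaparib (adjusted p = 0.768), and rose with MNA to 658 ± 16.9 CPM, with 531 in MNA 2 (0.32 ± 0.076, adjusted p = 0.0182, then 0.39 ± 0.053, 3.16e-05). Jmjd6, once described as a phosphatidylserine receptor and now known as a nuclear hydroxylase, fell from 18.5 ± 1.16 CPM to 14.9 ± 0.207 with olaparib (adjusted p = 0.0131) and to 14.4 ± 0.860 with MNA, with 16.4 in MNA 2 (adjusted p = 0.0192, then 0.00118). Tyro3, the third TAM receptor, was at 4.27 ± 0.254 CPM with DMSO and 5.98 ± 1.21 with olaparib (adjusted p = 0.0975, and 0.0452 without MNA 2). With MNA it was at 4.76 ± 1.43 CPM, with 3.26 in MNA 2 (adjusted p = 0.901, then 0.53).

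Of 19 tested genes of the engulfment machinery, 3 rose and 4 fell with olaparib (all tested genes: 14.3% and 12.8%). In the contrast of MNA and DMSO, 5 rose and 1 fell (all tested genes: 16.3% and 12.3%). Rac2, the haematopoietic Rac GTPase, rose from 220 ± 32.4 to 470 ± 18.8 CPM with olaparib (1.09 ± 0.249, adjusted p = 0.00864). With MNA it rose to 627 ± 3.32 CPM, with 232 in MNA 2 (1.26 ± 0.250, adjusted p = 0.0142, then 1.51 ± 0.092, 2.09e-08). Vav1, an exchange factor for Rac, rose from 55.8 ± 5.08 to 81.7 ± 2.53 CPM with olaparib (adjusted p = 0.00282) and to 79.1 ± 3.43 with MNA, with 58.8 in MNA 2 (adjusted p = 0.0187, then 2.95e-05). Abca7, a transporter with a role in phagocytosis, rose from 35.1 ± 2.97 to 50.1 ± 1.79 CPM with olaparib (adjusted p = 0.00536) and to 47.6 ± 4.99 with MNA, with 35.5 in MNA 2 (adjusted p = 0.0337, then 0.000385). Rhog, a GTPase upstream of Rac, was at 114 ± 7.10 CPM with DMSO and 133 ± 7.28 with olaparib (adjusted p = 0.168, and 0.0136 without MNA 2), and rose with MNA to 184 ± 12.6 CPM, with 126 in MNA 2 (adjusted p = 0.0142, then 1.75e-06).

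Of 18 genes of phagosome maturation, 2 rose and 2 fell with olaparib (all tested genes: 14.3% and 12.8%). In the contrast of MNA and DMSO, 2 rose and 3 fell (all tested genes: 16.3% and 12.3%). Lamp2, a lysosomal membrane protein, rose from 1040 ± 47.1 to 1690 ± 194 CPM with olaparib (0.71 ± 0.092, adjusted p = 0.000438), and with MNA it was at 1050 ± 88.2 CPM, with 976 in MNA 2 (adjusted p = 0.971, then 0.863). Mon1b, part of the exchange factor for Rab7, fell with olaparib from 35.4 ± 1.75 to 27.7 ± 1.65 CPM (adjusted p = 0.00885), and with MNA it was at 40.8 ± 0.605 CPM, with 33.0 in MNA 2 (adjusted p = 0.204, then 0.0131). Dnase2a, the lysosomal DNase, was at 202 ± 8.72 CPM with DMSO and 199 ± 8.05 with olaparib (adjusted p = 0.899), and fell with MNA to 147 ± 10.7 CPM, with 189 in MNA 2 (adjusted p = 0.0195, then 4.14e-05). Rab7, a GTPase of late endosomes, was at 487 ± 6.94 CPM with DMSO and 506 ± 17.7 with olaparib (adjusted p = 0.58), and fell with MNA to 394 ± 9.51 CPM, with 477 in MNA 2 (adjusted p = 0.0332, then 0.000178).

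Of 6 tested receptors for find-me signals, 1 rose and 0 fell with olaparib (all tested genes: 14.3% and 12.8%). In the contrast of MNA and DMSO, 3 rose and 1 fell (all tested genes: 16.3% and 12.3%). P2ry6, a receptor for UDP released by dying cells, rose from 88.9 ± 10.9 to 174 ± 14.8 CPM with olaparib (adjusted p = 0.0148) and to 245 ± 18.2 with MNA, with 90.7 in MNA 2 (adjusted p = 0.0142, then 3.3e-08). Gpr132 was at 9.28 ± 2.0 CPM with DMSO and 11.4 ± 2.36 with olaparib (adjusted p = 0.373), and rose with MNA to 19.9 ± 6.82 CPM, with 11.7 in MNA 2 (adjusted p = 0.0215, then 0.000604). Of 7 tested inhibitory receptors and their phosphatases, 1 rose in either contrast and 0 fell, beside the same shares of all tested genes. Pecam1, an adhesion molecule with inhibitory motifs, rose with olaparib from 2.04 ± 0.836 to 4.64 ± 0.615 CPM (adjusted p = 0.00875), and with MNA it was at 1.70 ± 0.208 CPM, with 1.0 in MNA 2 (adjusted p = 0.267, then 0.462). Ptpn6, the phosphatase SHP-1, was at 57.2 ± 1.49 CPM with DMSO and 92.6 ± 4.25 with olaparib (adjusted p = 0.0595, and 5.02e-06 without MNA 2), and rose with MNA to 162 ± 20.3 CPM, with 56.8 in MNA 2 (adjusted p = 0.0142, then 3.84e-09).

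Of 4 tested genes of sheddases and their partners, 1 rose and 0 fell with olaparib (all tested genes: 14.3% and 12.8%). In the contrast of MNA and DMSO, 0 rose and 1 fell (all tested genes: 16.3% and 12.3%). Adam10, a protease that cleaves Axl from the surface, rose with olaparib from 181 ± 8.31 to 204 ± 9.94 CPM (adjusted p = 0.0403, a call lost without 9 of the 12 single libraries), and with MNA it was at 190 ± 2.61 CPM, with 177 in MNA 2 (adjusted p = 0.519, then 0.307). Adam17, which cleaves Mertk, was at 173 ± 17.9 CPM with DMSO, 171 ± 4.09 with olaparib (adjusted p = 0.851) and 153 ± 5.84 with MNA, with 171 in MNA 2 (adjusted p = 0.165, then 0.0517).

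Of 12 nuclear receptors and transcription factors tied to apoptotic cell clearance, 1 rose and 3 fell with olaparib, and 1 rose and 7 fell with MNA (medians -0.14 and -0.33). Over all tested genes, 14.3% rose and 12.8% fell with olaparib, 16.3% rose and 12.3% fell with MNA, and both medians were 0.00. This list too was written with earlier results known, so no direction is read from its counts. Rxra, the partner of the LXR and PPAR receptors, rose from 52.1 ± 2.60 to 77.0 ± 6.07 CPM with olaparib (0.56 ± 0.081, adjusted p = 0.000845). It fell with MNA to 36.8 ± 1.17 CPM, with 44.7 in MNA 2 (-0.42 ± 0.081, adjusted p = 0.0142, then -0.50 ± 0.068, 2.9e-05). Pparg fell with olaparib from 211 ± 43.2 to 95.7 ± 21.6 CPM (-1.14 ± 0.215, adjusted p = 0.00352). With MNA it fell to 120 ± 23.7 CPM, with 191 in MNA 2 (-0.61 ± 0.213, adjusted p = 0.0485, a call lost without 10 of the 12 single libraries, then -0.82 ± 0.182, 0.00173). Maf was at 9.04 ± 1.27 CPM with DMSO and 12 ± 1.16 with olaparib (adjusted p = 0.136, and 0.0193 without MNA 2), and fell with MNA to 4.19 ± 0.763 CPM, with 7.34 in MNA 2 (-0.86 ± 0.201, adjusted p = 0.017, then -1.12 ± 0.150, 2.9e-05). The LXR gene Nr1h3 was at 41.0 ± 4.68 CPM with DMSO and 28.1 ± 2.08 with olaparib (adjusted p = 0.218, and 0.000465 without MNA 2), and fell with MNA to 10.2 ± 1.48 CPM, with 32.0 in MNA 2 (-1.39 ± 0.329, adjusted p = 0.0174, then -2.01 ± 0.115, 1.26e-08).

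Markers of other cell types moved beside these values. The 9 macrophage markers were all above the floor, and their summed level was 4820 to 6060 CPM with DMSO, 9200 to 11000 with olaparib and 6000 to 7890 in MNA libraries 1, 3 and 4 (4430 in MNA 2). The 6 M2 markers summed to 33200 to 53400 CPM with DMSO, 19100 to 30600 with olaparib and 1560 to 2140 in the 3 MNA libraries (32200 in MNA 2). Most of this sum was Chil3, with a mean of 36700 CPM with DMSO, 21900 with olaparib, 726 in the 3 MNA libraries and 30300 in MNA 2. With olaparib Chil3 and Ccl24 lay below DMSO in every library, while Arg1 (555 with DMSO, 688 with olaparib), Retnla (888 and 1080), Mgl2 (618 and 932) and Clec10a (32.7 and 17.3) overlapped. In MNA libraries 1, 3 and 4 all but Mgl2 lay below DMSO, with Arg1 at 11.4 CPM (359 in MNA 2). The 4 monocyte markers summed to 0.571 to 0.797, 2.48 to 3.34 and 6.14 to 7.94 CPM (0.466 in MNA 2), and the 9 dendritic cell markers to 33.8 to 38.2, 44.8 to 51.7 and 55.6 to 60.1 CPM (39.9). Most of the dendritic cell sum was Batf3 (means of 16.5, 26.8 and 31.7 CPM, MNA 2 included) and Zbtb46 (16.4, 17.3 and 13.6 CPM). In the same order Ccr7 was at 0.231, 1.45 and 5.56 CPM and Xcr1 at 1.79, 0.784 and 1.1 CPM. The genes of this list thus did not share one direction. For endothelial cells, another site of Stab1, Tek, Emcn and Ptprb were at or under the floor in every library, and the sum of all 7 markers, nearly all from Vwf, was 900 to 1120 CPM with DMSO, 563 to 647 with olaparib and 180 to 232 in the 3 MNA libraries (865 in MNA 2). Without Vwf it was 6.28 to 14.0, 7.91 to 12.9 and 4.81 to 6.68 CPM (7.70). Within this sum Tie1 was at a mean of 1.4 CPM with DMSO, 5.83 with olaparib and 4.18 with MNA (MNA 2 included). Kdr was at 6.33, 2.21 and 1.57 CPM and Cdh5 at 2.2, 2.18 and 0.28 CPM in the same order, so these markers did not share one direction. The 10 neutrophil markers reached 10.9 CPM with DMSO, 4.09 with olaparib and 69.3 with MNA (library 4), and the 5 erythroid markers 3.8, 0.337 and 54.5 CPM (library 4). Among MNA libraries 1, 3 and 4, library 4 held the lowest value of Mertk, Mfge8, Pros1, Stab1 and Timd4 and the highest of no member. The 10 stromal markers, of which Col3a1 and Lum were at or under the floor, summed to at most 5.36 CPM, and the 6 B cell markers to at most 6.95 CPM. Their part in the differences of the members was not tested.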

How the data were processed

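RNA of 12 BMDM libraries was measured, 4 per group. The deposited values are the authors' raw counts of single-end reads per gene, not normalized, from stranded poly(A) libraries mapped to GRCm38 by STAR 2.5.2b, and R 3.6.0 and DESeq2 are also named in their processing notes. Which strand column was used is not given in the sources used here. Symbols and positions came from GENCODE vM21 (34490 of 35275 identifiers matched), and 13428 genes had 0 counts everywhere.

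The quasi-likelihood F test of edgeR 4.0.16 (R 4.3.3) was fitted to 12849 genes with TMM factors and all 12 libraries together, after filterByExpr with a minimum count of 10 and a minimum total of 15. A call is a Benjamini-Hochberg adjusted p under 0.05, and standard errors come from the F values. The floor was 3 counts per library. Intervals from counting were not used because each group had replicates. The fit was tested on simulated counts.

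The members, gene lists and markers were chosen with earlier results of these data known. The text names the 7 members, for each list and treatment the 2 called genes with the smallest p, and for each member the 3 genes with the highest r. Of the genes this rule picks, 2 are not reported here, and Itgav, Itgb3, Itgb5, Tyro3, Adam17 and Nr1h3 were named in addition, for their roles, after their values were seen. Of the 107 genes of the lists, 13 had low counts and 1 (Lilrb4a) matched no identifier.

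The labels do not state whether libraries of the same number form a pair, and the study's legend names 4 donor mice. Deviations of same-numbered DMSO and olaparib libraries from their group means had r = 0.227, 0.172, 0.225 and 0.408 across genes. The highest r with another number was -0.041, 0.098, 0.01 and -0.098. For DMSO and MNA r was 0.242, 0.114, -0.009 and 0.277, beside 0.094, 0.005, 0.153 and -0.058 with another number. For olaparib and MNA it was 0.07, 0.137, 0.131 and 0.392, beside 0.14, -0.054, -0.015 and 0.014. P-values rest on the spread between these cultures, and whether each is of a separate donor is not stated. Alternatives were DESeq2 1.42.0, 2 other normalizations, 2 other filters, a replicate block, fits of 2 groups, a threshold of 0.01 and each library left out.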

Additional observations from a re-analysis of the deposited data

Results flagged for a closer look

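In groups of 4 libraries, a library was noted where its gap to the nearest other library exceeded Dixon's 95% critical value, taken as a share of the range of the group. This held in 8 of 96 groups of members and genes picked by the naming rule, where chance gives about 1 in 20, or 4.8. Of the 8, 6 were in MNA and 4 of these were MNA 2. Among the members, Axl was at 35.7 CPM in olaparib library 4 (the others 15.7 to 16.8), and Mfge8 was at 251 CPM in MNA 2 (356 to 365). Pros1 was at 132 CPM in olaparib library 3 (113 to 115), and Timd4 was at 0.37 CPM, or 9 counts, in MNA library 1 (0.0402 to 0.0772). Among the genes of the wider lists, MNA 2 was at 3.19 CPM for Stab2 (0.322 to 0.772), at 232 CPM for Rac2 (624 to 630) and at 33.0 CPM for Mon1b (40.3 to 41.5), and MNA library 1 was at 1160 CPM for Lamp2 (976 to 1010).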

How the results depend on the processing

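The log2 fold changes of the 6 fitted members were recomputed under 20 alternatives in each of the 3 contrasts, and 360 of 360 values moved by less than 1 SD between libraries, with 0 reversals of a called value. The value of Mertk with MNA, near 0, kept its sign in 18 of 20. The MNA call of Axl (1.82) was lost in the fit of 2 groups alone and without DMSO 2, 3 or 4 or MNA 1, 3 or 4 (1.25 to 1.93 without one of these), and that of Stab1 (-0.94) was lost in the fit of 2 groups alone and without any DMSO library, olaparib 1, 2 or 3, or MNA 1, 3 or 4 (-1.17 to -0.73). The MNA call of Pros1 was lost in the fit of 2 groups alone (-0.74), Mfge8 was called with MNA without MNA 2 (0.33), and with the replicate block and without MNA 2 Gas6 was called too. Against MNA, Axl was called higher with olaparib without MNA 1 (1.63) and with the replicate block and without MNA 2 (0.87).

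Of the 16 named list genes called with olaparib, Adam10 and Itgb5 lost their call with no filter on low counts and without most single libraries, and the other 14 kept it throughout. Of the 21 called with MNA, the fit of 2 groups alone kept 0, the fit without filter lost Rab7, and single libraries left out kept 13 (DMSO 3), 14 (DMSO 2 or 4), 17 (DMSO 1), 19 or 20 (any olaparib library), 7 (MNA 1 or 3) or 8 (MNA 4), with 0 reversals. Of 12 single libraries left out, 11 lost the MNA call of Cd300lf and 10 that of Pparg. For Abca7 and Rab7 it was 7, and for C3, Gpr132 and Itgb3 it was 6.

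In the fit with the replicate block and all libraries, 19 genes of the wider lists rose and 13 fell with olaparib, and 26 and 24 with MNA. No call of a member changed in it. With the replicate block and without MNA 2 the wider counts, higher then lower, were 35 and 20 with olaparib, 36 and 31 with MNA, and 29 lower with olaparib against MNA, and the counts over all tested genes were 3154 and 2962, 3618 and 3547, and 2952 and 2790 in the same order of contrasts. In fits of 2 groups alone they were 30 and 19 with olaparib and 8 lower against MNA, and over all genes 2886 and 2834 with olaparib and 847 lower against MNA. For MNA against DMSO, edgeR called 0 genes in the fit of 2 groups alone, where 4728 of 12379 genes (50 of 92 in the lists) had an unadjusted p under 0.05. At an adjusted p under 0.01 edgeR called 0 genes in this contrast, where 5756 had an unadjusted p under 0.05 and DESeq2 called 2411 at 0.01 (31 in the lists). At 0.01, 852 genes were higher and 530 lower with olaparib (8 and 4 in the lists), and 698 and 468 against MNA (9 and 3).

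With 1 library left out, the list counts with olaparib ranged from 11 (without olaparib 4) to 31 higher and from 6 to 19 lower, the highest values without MNA 2. They fell by over 1.5 times without DMSO 2, 3 or 4 or olaparib 2, 3 or 4 (11 or 12 higher, 6 or 7 lower, the lower count not without DMSO 2). With MNA they ranged from 6 to 37 higher and 1 to 28 lower, and fell by over 1.5 times without DMSO 2 (10 and 9), DMSO 3 (11 and 7), DMSO 4 (13 and 9), MNA 1 (8 and 1), MNA 3 (6 and 1) or MNA 4 (6 and 2). Against MNA the lower count ranged from 7 to 27, with 7 to 9 without DMSO 2, any olaparib library or MNA 1, 3 or 4. Over all tested genes, the ranges were 1231 to 2935 higher and 921 to 2759 lower with olaparib, 408 to 3543 and 55 to 3499 with MNA, and 987 to 2805 and 916 to 2698 against MNA. The lower count fell by over 1.5 times without DMSO 2, 3 or 4 or olaparib 2, 3 or 4 with olaparib, without any DMSO library or MNA 1, 3 or 4 with MNA, and without olaparib 2 or MNA 4 against MNA, and the higher count without DMSO 2, 3 or 4 or MNA 1, 3 or 4 with MNA. Leaving out MNA 2 gave the highest of each, with a common dispersion of 0.0333 with and 0.01231 without it. Timd4 was too low at this depth for a comparison.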
